A study of Mus musculus with 6 samples.

Results

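The collagen genes of the mouse carotid body were set against those of the adrenal medulla. The deposited table holds 26728 entries, and 44 of them carry a collagen chain symbol, Col followed by a type number, the letter a and a chain number. By the type of collagen they encode, 11 are fibrillar, 6 are basement membrane chains of type IV, 9 are FACIT chains and 18 belong to other types. The 3 carotid body libraries and the 3 adrenal medulla libraries come from untreated adult mice of the strain C57/BL6. Each library is 1 pool of 18 carotid bodies or of 10 adrenal medullas, dissected from 10 mice, so that n counts pools and p-values measure the spread between pools alone. The carotid body is the chemosensory organ at the fork of the carotid artery, and the adrenal medulla is the inner part of the adrenal gland that releases adrenaline and noradrenaline. Both were measured by RNA sequencing of amplified RNA from whole dissected tissue.

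Collagens are secreted proteins built from 3 chains wound into a triple helix. Fibrillar collagens of types I, III and V form the rope-like fibres of connective tissue, FACIT collagens attach to the surface of those fibres, and type IV collagen forms the sheet under endothelium and around smooth muscle and Schwann cells. Chains are hydroxylated and folded inside the cell, trimmed outside it, crosslinked by lysyl oxidases, and bound by integrin and discoidin receptors on neighbouring cells.

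Before the values, the promoters of the chains that the results turn on are shown, so that chains that share a helix and a chromosomal neighbourhood can be compared. RefSeq promoter windows of GRCm38.p6, 250 bases before to 50 bases after an annotated start, were listed for 35 of the 44 chains, in 38 windows. The expression values themselves were made on the older build mm9, and no coordinate was carried between the builds. Col1a2 lies at chr6:4505368-4505667 on the plus strand and encodes the alpha 2 chain of type I collagen. Col4a1 at chr8:11312777-11313076 on the minus strand and Col4a2 at chr8:11312555-11312854 on the plus strand are neighbours that run apart from each other, and their windows overlap by 78 bases. Col6a1 at chr10:76725995-76726294 and Col6a2 at chr10:76623355-76623654, both on the minus strand, are neighbours on chromosome 10. Capitals mark matches, on either strand, to the CCAAT box (CCAAT), the TATA box (TATAAA) or the GC box (GGGCGG).
Col1a2: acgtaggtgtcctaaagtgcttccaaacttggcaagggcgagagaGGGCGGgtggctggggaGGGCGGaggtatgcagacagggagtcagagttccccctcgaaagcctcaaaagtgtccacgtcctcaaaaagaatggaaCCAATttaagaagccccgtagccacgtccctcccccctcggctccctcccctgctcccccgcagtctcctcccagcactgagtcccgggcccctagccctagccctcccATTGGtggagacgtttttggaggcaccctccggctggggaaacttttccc
Col4a1: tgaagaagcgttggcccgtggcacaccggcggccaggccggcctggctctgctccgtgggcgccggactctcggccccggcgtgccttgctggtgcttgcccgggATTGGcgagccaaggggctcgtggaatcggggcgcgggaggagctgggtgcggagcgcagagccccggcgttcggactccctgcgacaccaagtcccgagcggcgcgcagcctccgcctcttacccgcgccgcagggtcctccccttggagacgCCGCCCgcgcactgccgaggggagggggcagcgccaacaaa
Col4a2: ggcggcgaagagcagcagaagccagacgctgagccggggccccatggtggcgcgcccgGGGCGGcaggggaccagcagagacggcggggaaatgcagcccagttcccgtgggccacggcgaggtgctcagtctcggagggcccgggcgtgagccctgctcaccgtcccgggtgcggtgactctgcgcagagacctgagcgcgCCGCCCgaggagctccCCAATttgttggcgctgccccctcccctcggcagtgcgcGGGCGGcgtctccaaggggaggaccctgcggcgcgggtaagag
Col6a1: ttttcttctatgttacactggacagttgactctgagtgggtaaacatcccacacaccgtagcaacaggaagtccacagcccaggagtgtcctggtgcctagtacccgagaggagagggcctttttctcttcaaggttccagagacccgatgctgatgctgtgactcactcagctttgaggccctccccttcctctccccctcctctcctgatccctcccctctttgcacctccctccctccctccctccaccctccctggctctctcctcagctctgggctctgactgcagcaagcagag
Col6a2: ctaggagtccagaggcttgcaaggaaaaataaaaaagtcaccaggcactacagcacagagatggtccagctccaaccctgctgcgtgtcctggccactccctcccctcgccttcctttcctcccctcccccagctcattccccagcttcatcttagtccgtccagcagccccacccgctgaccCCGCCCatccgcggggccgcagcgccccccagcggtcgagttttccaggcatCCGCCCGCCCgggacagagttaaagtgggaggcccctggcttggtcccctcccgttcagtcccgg
Col1a2 holds 2 CCAAT matches and 2 GC matches, Col4a1 holds 1 of each, and Col4a2 holds 1 CCAAT match and 3 GC matches. The GC match of Col4a1 and the last GC match of Col4a2 are the same site, in the overlap of their windows. Col6a2 holds 3 GC matches, 2 of them overlapping, and Col6a1 holds none of the 3 motifs. No TATA match stands in any of these 5 windows. Among all 32544 windows of the table, CCAAT was present in 37.4%, TATAAA in 13.6% and GGGCGG in 35.9%. Among the 38 collagen windows CCAAT was present in 34.2%, TATAAA in 13.2% and GGGCGG in 60.5%. A match is a run of letters and not a known binding site.

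The libraries held 13266225 to 16445925 reads, so 1 read on an mRNA of 5 kb corresponds to 0.0122 to 0.0151 RPKM, a read number divided by mRNA length and by library depth. The deposited values carry no molecular identifiers, so read numbers describe counting error only. Adipocyte markers varied within each tissue, with summed levels of 432, 3512 and 919.8 RPKM in carotid body pools 1, 2 and 3, and of 761, 229 and 2333 RPKM in adrenal medulla pools 1, 2 and 3. An earlier analysis of these data found carotid body pool 2 and adrenal medulla pool 3 to stand apart, and collagen calls lost without both are given below. Tissue markers also differed. All 15 fibroblast markers were called higher in the carotid body, with summed levels of 7421 to 11045 RPKM in carotid body pools and 790.1 to 1586 RPKM in adrenal medulla pools. The 11 smooth muscle and pericyte markers, all called higher, summed to 2589 to 3133 RPKM in carotid body pools and 121 to 122 RPKM in adrenal medulla pools, and the 10 tested markers of Schwann cells and glia, all called higher, to 399.5 to 568 RPKM in carotid body pools and 50.6 to 75.2 RPKM in adrenal medulla pools. Of 12 endothelial markers 8 were called higher, at 546 to 670.1 RPKM in carotid body pools and 256 to 309 RPKM in adrenal medulla pools. All 10 adrenal cortex markers were called lower in the carotid body, at 93.5 to 195 RPKM against 11380 to 14292 RPKM in the adrenal medulla, and the adrenal medulla libraries thus hold cortical transcripts. Of the 10 markers of chromaffin and glomus cells, the secretory cells of these organs, 1 was called higher, 6 were called lower and 3 were not called. The part of these marker differences in the collagen values was not tested. In bulk tissue, fewer cells of a type and less RNA per cell cannot be told apart.

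Collagen transcripts took a larger share of the carotid body libraries than of the adrenal medulla libraries, and the makeup of that share differed too. All 44 chains together took 0.224%, 0.416% and 0.496% of the reads in carotid body pools 1, 2 and 3, against 0.0536%, 0.0876% and 0.0703% in adrenal medulla pools 1, 2 and 3. The lowest carotid body pool lay above the highest adrenal medulla pool. The means were 0.379 ± 0.139% in carotid body and 0.0705 ± 0.0170% in adrenal medulla (SD, n = 3 pools each), a ratio of 5.37. A two-sided exact permutation test gave p = 0.10, the smallest that 3 pools against 3 can reach. Within the collagen reads, fibrillar chains made up 68.3 ± 6.64% in carotid body and 35.5 ± 3.36% in adrenal medulla. Basement membrane chains made up 9.66 ± 1.06% in carotid body and 30.5 ± 2.17% in adrenal medulla. The other types stood at 16.1 ± 3.96% in carotid body and 29.5 ± 5.45% in adrenal medulla (SD, n = 3 pools each). The pools did not overlap for these 3 classes, each with an exact permutation p of 0.10. FACIT chains took 5.98 ± 1.73% of collagen reads in carotid body and 4.56 ± 1.35% in adrenal medulla, which overlapped (exact permutation p = 0.40, n = 3 each). Since these shares add up to the whole, a larger fibrillar share lowers the others.

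**Figure D1:**
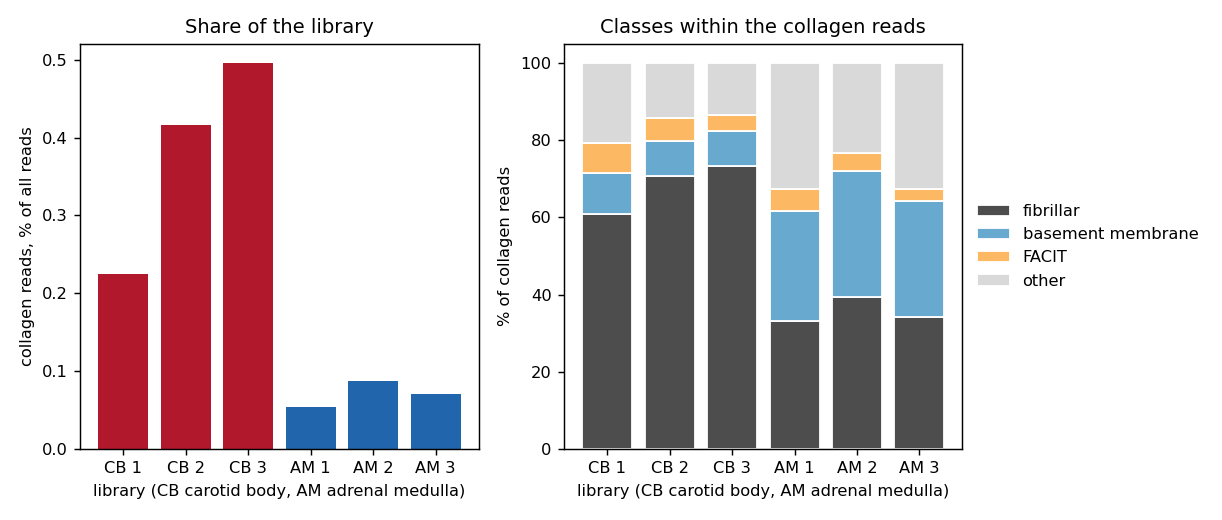
The left panel shows the percent of all reads on the 44 collagen chains in each library, and the right panel shows how those reads divide into 4 classes, with carotid body (CB) pools left of adrenal medulla (AM) pools. Carotid body pools lie between 0.224% and 0.496%, adrenal medulla pools between 0.0536% and 0.0876%, and the fibrillar part is larger in each carotid body pool.

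A single chain led the carotid body. Col1a2 held 45.7%, 38.8% and 43.1% of the collagen reads in carotid body pools 1, 2 and 3. In the adrenal medulla Col1a2 came first in pool 2, at 17.8%, and Col6a1, a chain of the beaded filaments of type VI collagen, came first in pools 1 and 3, at 19.2% and 21.2%. These are shares of reads, which also grow with the length of the mRNA.

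Of the 44 chains, 24 reached 1 RPKM in at least 3 libraries and entered limma, which was fitted to log2(RPKM + 1) across 13357 genes with Benjamini-Hochberg adjustment over all of them. A gene is called at an adjusted p under 0.05, two-sided; in either direction 21.9% of all genes were. Log2 differences are on that scale, positive where the carotid body is higher, and they understate what separates weakly expressed genes. Of these 24 chains 15 were called higher in the carotid body, where 14.2% of all genes tested were called higher, and 1 was called lower, where 7.73% of all genes were. The other 8 were not called. The median log2 difference of the 24 was 1.45, against 0.02 over all genes. All 3 carotid body pools lay above all 3 adrenal medulla pools for 16 of the 24, a pattern shown by 22.3% of all genes, and below them for 2 of the 24, against 14.7% of all genes. Only Col23a1 passed the filter through the carotid body alone and only Col7a1 through the adrenal medulla alone; 13 chains reached 1 RPKM in all 6 libraries, and 9 in all carotid body pools and some adrenal medulla pools. Chains that passed through one tissue had to differ, so the counts are a description. Over all 44 chains, tested or not, the carotid body pools lay above for 27, below for 4 and overlapped the adrenal medulla pools for 13. No share over all entries of the table was computed to set beside these counts. They include chains with few reads, so they too are a description.

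**Figure D2:**
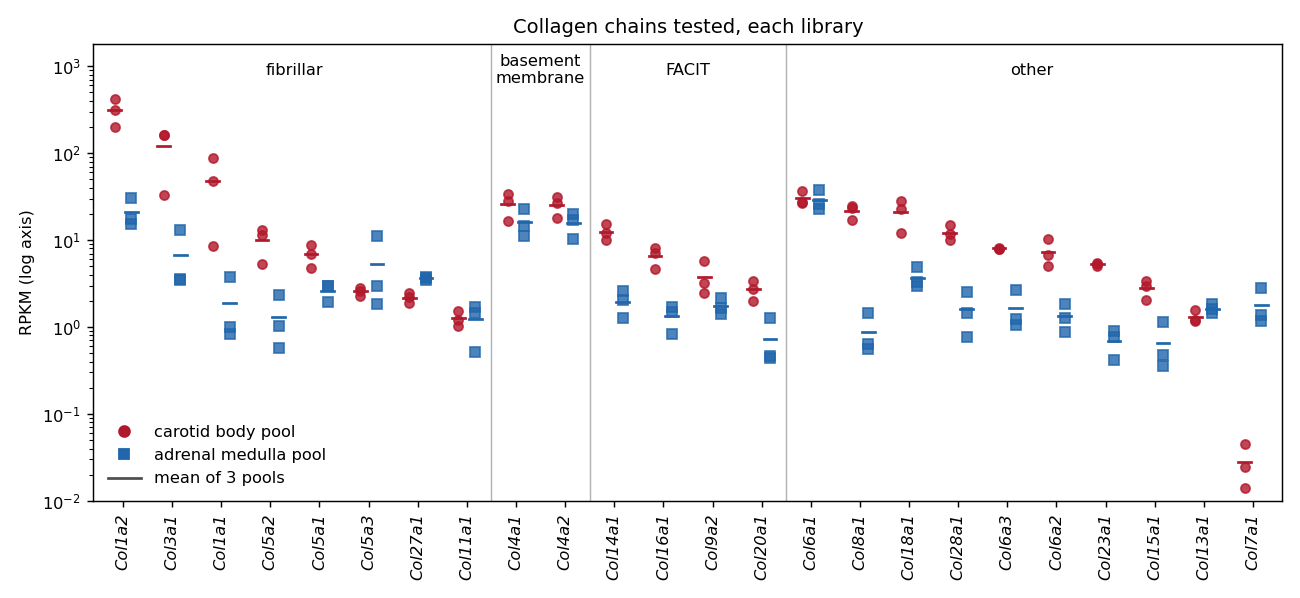
Level in RPKM, on a log axis, of the 24 collagen chains tested, with 1 point for each pool, carotid body left of adrenal medulla, and a line at the mean of 3 pools. Col1a2 is the highest chain in carotid body, Col6a1 lies at the same level in both tissues, and Col7a1 is the chain with its carotid body pools furthest below its adrenal medulla pools.

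Among the 8 fibrillar chains in the RPKM fit, those of the type I and III fibres had the largest log2 differences. Of the 8, 5 were called higher in the carotid body, 0 were called lower and 3 were not called, with a median log2 difference of 1.67. Col1a2 stood at 199, 314 and 415 RPKM in carotid body pools 1, 2 and 3, against 15.4, 30.4 and 17.4 RPKM in adrenal medulla pools 1, 2 and 3. Its partner Col1a1, the alpha 1 chain of type I collagen, stood at 8.50, 48.0 and 87.4 RPKM in carotid body pools, against 0.838, 3.79 and 0.994 RPKM in adrenal medulla pools. Col3a1, which forms the homotrimer of type III collagen, the collagen of vessel walls and other pliable tissue, stood at 32.6, 163 and 162 RPKM in carotid body pools, against 3.50, 12.9 and 3.53 RPKM in adrenal medulla pools. The tissues did not overlap for any of the 3 chains, but carotid body pool 1 was the lowest of its tissue and adrenal medulla pool 2 the highest of its own. The log2 differences were 3.81 ± 0.35 for Col1a2 (SE; limma adjusted p = 1.19e-04), 3.73 ± 0.75 for Col1a1 (adjusted p = 0.00749) and 3.88 ± 0.67 for Col3a1 (adjusted p = 0.00333). Single pools moved the values of Col1a1 and Col3a1, that of Col1a1 to 4.66 without carotid body pool 1 and to 3.05 without carotid body pool 3, and that of Col3a1 to 4.64 without carotid body pool 1. Without carotid body pool 2 together with adrenal medulla pool 3, Col1a1 had a log2 difference of 3.29 and was no longer called (limma adjusted p = 0.0585), while Col3a1, at 3.22, was.

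The spread of Col1a1 between carotid body pools was wider than that of its partner. Pool 3 held 10.3 times the RPKM of pool 1 for Col1a1, 4.97 times for Col3a1 and 2.08 times for Col1a2. The summed fibroblast markers of carotid body pool 3 were 1.17 times those of pool 1, and the median of the marker ratios was 1.30. Mgp was the largest part of the sum in every pool, at 5067, 3055 and 6651 RPKM in carotid body pools 1, 2 and 3. In pool 2 Col1a1 was at 5.64 times and Col3a1 at 5.01 times the level of pool 1, with the summed fibroblast markers at 0.786 times and a median marker ratio of 1.12. In the adrenal medulla, pool 2 held 4.53 times the Col1a1 of pool 1, with summed fibroblast markers at 2.01 times and a median marker ratio of 1.15. The ratio of Col1a2 to Col1a1 was therefore 23.4, 6.54 and 4.75 in carotid body pools 1, 2 and 3, and 18.3, 8.01 and 17.5 in adrenal medulla pools 1, 2 and 3. Both sets overlap (exact permutation p = 0.60, n = 3 each). Type I collagen is mostly a helix of a pair of alpha 1 chains and 1 alpha 2 chain, and in each of the 6 libraries the alpha 2 mRNA had the higher RPKM. The amplification kit named by the labels starts at the poly(A) tail, and its effect on levels compared between genes was not tested.

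Type V chains, which seed and limit the width of type I fibres, showed smaller differences. Col5a2 stood at 5.25, 13.2 and 11.5 RPKM in carotid body pools, against 1.04, 2.33 and 0.579 RPKM in adrenal medulla pools (log2 2.23 ± 0.38, SE; limma adjusted p = 0.00306). Col5a1 stood at 4.80, 6.99 and 8.71 RPKM in carotid body pools, against 1.93, 2.98 and 2.93 RPKM in adrenal medulla pools (log2 1.10 ± 0.26, SE; adjusted p = 0.0152). Neither chain overlapped between the tissues. Col5a1 was not called without carotid body pool 3 (log2 0.93, adjusted p = 0.0638) or without adrenal medulla pool 1 (log2 0.95, adjusted p = 0.0523). Col5a3, the third chain of the type, was at 2.25, 2.82 and 2.62 RPKM in carotid body pools and at 1.82, 2.99 and 11.04 RPKM in adrenal medulla pools. It overlapped and was not called (log2 -0.53, adjusted p = 0.510), and its value was 0.08 without adrenal medulla pool 3, the pool at 11.04 RPKM.

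None of the minor and cartilage-type fibrillar chains was called in the RPKM fit. Col27a1, a chain of cartilage and other developing tissues, stood at 2.45, 2.20 and 1.88 RPKM in carotid body pools, against 3.67, 3.79 and 3.46 RPKM in adrenal medulla pools. The carotid body pools lay below without overlap, yet limma did not call it (log2 -0.55, adjusted p = 0.0636); it was called lower after median-ratio scaling (log2 -0.61, adjusted p = 0.0390) and after quantile normalization (log2 -0.70, adjusted p = 0.0199). Col11a1, a partner of type II collagen in cartilage fibrils, averaged 1.25 ± 0.249 RPKM in carotid body and 1.23 ± 0.635 RPKM in adrenal medulla (SD, n = 3 each; log2 0.05, adjusted p = 0.915). Col2a1, the main collagen of cartilage, was too low for the fit, at 0.375, 0.337 and 0.262 RPKM in carotid body pools and at 0 in the adrenal medulla pools. That is 72 reads in carotid body and 0 reads in adrenal medulla, at least 24.4-fold higher against a floor of 3 reads over the group. Of 13 other chondrocyte markers found, 5 were tested. Of these, 4 were called higher, 0 were called lower and 1 was not called, where 14.2% of all genes were called higher. Comp and Matn4, both called higher, reached 1 RPKM in the carotid body alone, so they had to differ and their calls are a description. Matn4 lost its call in 6 alternative runs and Sox9 in 4. Matn1 and Ucma were also at 0 in the adrenal medulla, and averaged 0.0240 and 0.218 RPKM in carotid body. The aggrecan gene Acan averaged 0.0653 RPKM in carotid body and 0.288 RPKM in adrenal medulla. The markers found summed to 104 to 161 RPKM in carotid body pools and 2.51 to 7.10 RPKM in adrenal medulla pools. Cytl1 made up 77.9% to 91.7% of that sum in carotid body pools and 17.4% to 32.1% in adrenal medulla pools. The part of these markers in the Col2a1 reads was not tested. Col11a2 and Col24a1 had at most 17 reads in a tissue.

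**Figure D3:**
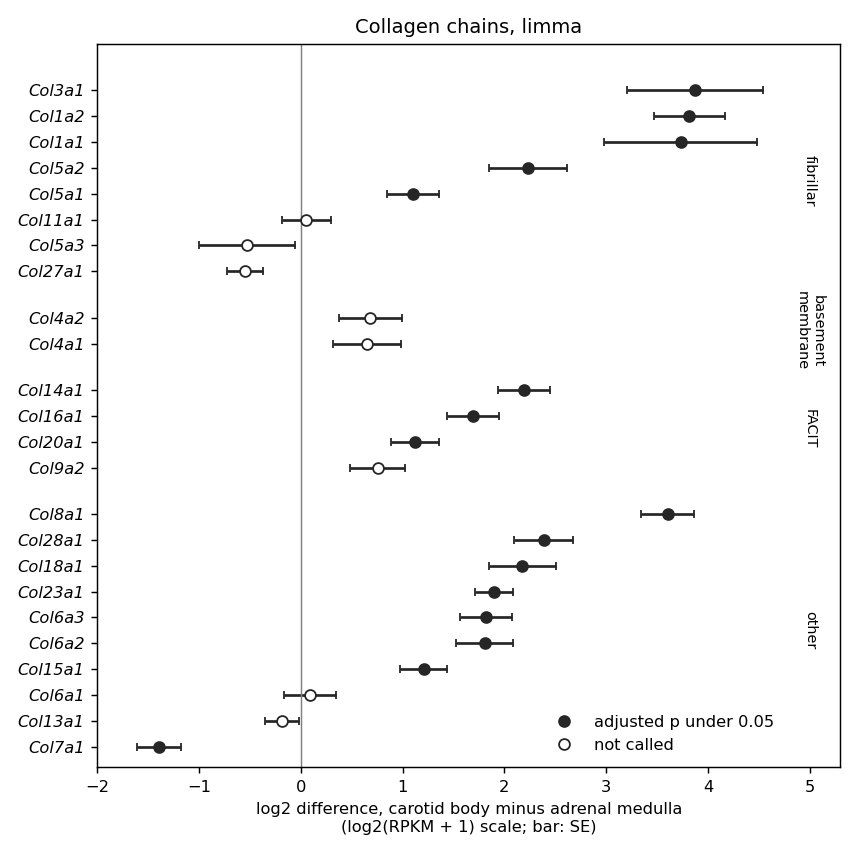
Log2 difference, carotid body minus adrenal medulla, of the 24 collagen chains tested by limma, with the SE as bars, by class. Filled points are called at an adjusted p under 0.05, and they are 15 chains right of 0 and Col7a1, at -1.39, left of it.

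Neither of the basement membrane chains that entered the fit was called. Col4a1 stood at 16.6, 28.3 and 33.5 RPKM in carotid body pools, against 11.3, 23.0 and 14.6 RPKM in adrenal medulla pools. Col4a2, which joins pairs of Col4a1 chains in the common type IV helix, stood at 17.9, 27.0 and 31.7 RPKM in carotid body pools, against 10.3, 19.7 and 16.8 RPKM in adrenal medulla pools. For both, carotid body pool 1 lay below adrenal medulla pool 2, so the tissues overlapped. The log2 differences were 0.65 ± 0.34 (SE; limma adjusted p = 0.229) for Col4a1 and 0.68 ± 0.31 (adjusted p = 0.165) for Col4a2. With the pool number as a block, Col4a2 was called (adjusted p = 0.0355) and Col4a1 was not (adjusted p = 0.0743). The ratio of Col4a2 to Col4a1, the pair whose promoter windows overlap, kept within 0.946 to 1.08 in carotid body pools and 0.856 to 1.15 in adrenal medulla pools (exact permutation p = 0.80, n = 3 each). Within a tissue, Col4a1 varied by up to 2.04-fold between pools, in the adrenal medulla, and Col4a2 by up to 1.92-fold, also there.

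The remaining type IV chains, Col4a3 to Col4a6, which form the networks of kidney, lung, muscle and other specialised membranes, were below the filter. Reads recovered from RPKM and mRNA length, tested with limma-voom over 16403 entries, called Col4a4, Col4a5 and Col4a6 higher in the carotid body, where 14.2% of all entries were called higher. Col4a6 had 147 reads in carotid body and 15 reads in adrenal medulla (log2 3.23, adjusted p = 9.53e-04). Col4a6 entered that fit through the carotid body alone, so it had to differ and its call is a description. Col4a5, its neighbour on the X chromosome, had 315 reads in carotid body and 113 reads in adrenal medulla (log2 1.48, adjusted p = 0.0148). Col4a4 had 258 reads in carotid body and 128 reads in adrenal medulla (log2 1.02, adjusted p = 0.0418), and its neighbour Col4a3 had 91 reads in carotid body and 125 reads in adrenal medulla, overlapped between the tissues and was not called (log2 -0.27, adjusted p = 0.763).

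FACIT chains, which bridge fibrils to the surrounding matrix, were mostly higher in the carotid body. Of 4 tested, 3 were called higher and 1 was not called, and the median log2 difference was 1.41. Col14a1, a chain that binds type I fibrils, stood at 10.0, 15.2 and 12.2 RPKM in carotid body pools, against 2.03, 2.58 and 1.28 RPKM in adrenal medulla pools (log2 2.19 ± 0.25, SE; limma adjusted p = 4.12e-04). Col16a1 stood at 4.67, 7.16 and 8.07 RPKM in carotid body pools, against 1.48, 1.72 and 0.838 RPKM in adrenal medulla pools (log2 1.69 ± 0.25; adjusted p = 0.00159). Both lay above the adrenal medulla in every carotid body pool. Col20a1 stood at 1.97, 2.72 and 3.42 RPKM in carotid body pools, against 0.444, 1.25 and 0.464 RPKM in adrenal medulla pools (log2 1.12 ± 0.24; adjusted p = 0.00977). Its call was lost without carotid body pool 2 together with adrenal medulla pool 3 (log2 1.01, adjusted p = 0.0509). Col9a2, a chain of type IX collagen on cartilage fibrils, averaged 3.78 ± 1.68 RPKM in carotid body and 1.75 ± 0.387 RPKM in adrenal medulla (SD, n = 3 each), did not overlap, and was not called (log2 0.75, adjusted p = 0.0825).

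Col12a1, a FACIT chain of tendon, fascia and other stretched tissue, has no mRNA length in the deposited table, so its values are reads and not RPKM. Scaled to the reads of the library, as RPM (the same scaling without the length), it stood at 65.8, 87.5 and 57.5 in carotid body pools 1, 2 and 3, against 3.94, 3.57 and 1.70 in adrenal medulla pools 1, 2 and 3. The lowest carotid body pool was far above the highest adrenal medulla pool, with 3012 reads in carotid body and 132 reads in adrenal medulla. On log2(RPM + 1), fitted with limma over 15695 entries of which 14.6% were called higher and 7.53% lower, its difference was 4.16 ± 0.31 (SE; adjusted p = 3.36e-05). Of the FACIT chains below the filter, Col9a3 had 90 reads in carotid body and 19 reads in adrenal medulla (limma-voom log2 2.24, adjusted p = 0.0117). Col9a3 entered limma-voom through the carotid body alone, so it had to differ and its call is a description. Col19a1 had 51 reads in carotid body and 3 reads in adrenal medulla, Col9a1 had 5 reads in carotid body and 0 reads in adrenal medulla, and Col22a1 had 4 reads in carotid body and 19 reads in adrenal medulla, with its carotid body pools below.

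Of the 3 main type VI chains, which together form beaded filaments around cells, Col6a2 and Col6a3 were called higher in the carotid body and Col6a1 was not called. Col6a1 stood at 27.1, 26.5 and 36.8 RPKM in carotid body pools, against 25.7, 22.7 and 37.3 RPKM in adrenal medulla pools. Col6a2 stood at 5.01, 6.77 and 10.2 RPKM in carotid body pools, against 0.878, 1.86 and 1.27 RPKM in adrenal medulla pools. Col6a3 stood at 7.98, 8.20 and 7.93 RPKM in carotid body pools, against 1.25, 2.67 and 1.04 RPKM in adrenal medulla pools. Col6a1 thus overlapped between the tissues, while every carotid body pool lay above every adrenal medulla pool for its partners. The log2 difference of Col6a1 was 0.09 ± 0.26 (SE; limma adjusted p = 0.867), that of Col6a2 was 1.81 ± 0.28 (adjusted p = 0.00184) and that of Col6a3 was 1.82 ± 0.26 (adjusted p = 0.00114). The ratio of Col6a1 to Col6a2, whose genes are neighbours on chromosome 10, was 3.62 to 5.41 in carotid body pools and 12.2 to 29.3 in adrenal medulla pools. The ratio of Col6a3 to Col6a2 overlapped, at 0.779 to 1.59 in carotid body pools and 0.820 to 1.44 in adrenal medulla pools. Of the late type VI chains Col6a4, Col6a5 and Col6a6, none exceeded 0.304 RPKM in a library.

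Ratios were compared for 8 pairs of chains, within the library, so that a factor shared by all genes of the library cancels. The ratio of Col5a1 to Col5a2 was 0.530 to 0.915 in carotid body pools and 1.28 to 5.06 in adrenal medulla pools. That of Col8a1 to Col8a2, the chains of the type VIII network, was 25.0 to 37.3 in carotid body pools and 1.49 to 9.96 in adrenal medulla pools. That of Col9a2 to Col9a3 was 3.34 to 7.63 in carotid body pools and 9.72 to 18.0 in adrenal medulla pools. These 3 ratios and that of Col6a1 to Col6a2 did not overlap between the tissues, each with an exact permutation p of 0.10 (n = 3 each), the smallest possible, and 0.20 after Benjamini-Hochberg adjustment over the 8 pairs. The other 4 ratios overlapped. In the adrenal medulla Col8a2 and Col9a3 had 39 and 19 reads in all, so their ratios there rest on few reads.

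**Figure D4:**
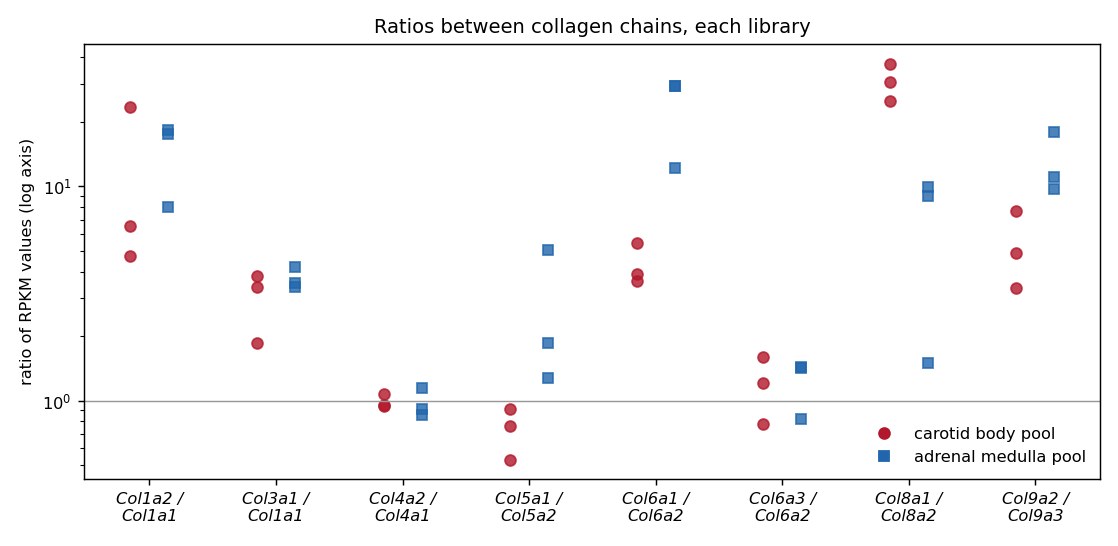
Ratio of RPKM values between 2 collagen chains in the same library, on a log axis, for 8 pairs, with carotid body pools left of adrenal medulla pools and a line at 1. The pools separate for Col5a1 over Col5a2, Col6a1 over Col6a2, Col8a1 over Col8a2 and Col9a2 over Col9a3, and they overlap for the other 4 pairs.

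Of the other types, 10 chains were tested, of which 7 were called higher in the carotid body, 1 was called lower and 2 were not called, with a median log2 difference of 1.81. Col8a1, a short-chain network collagen of vessel walls and of the membrane under corneal endothelium, had the largest difference of these. It stood at 17.1, 23.5 and 24.4 RPKM in carotid body pools, against 0.641, 1.45 and 0.559 RPKM in adrenal medulla pools (log2 3.60 ± 0.26, SE; limma adjusted p = 3.63e-05). Col28a1, a chain found in peripheral nerve around glia, stood at 9.92, 15.0 and 11.6 RPKM in carotid body pools, against 1.46, 2.55 and 0.776 RPKM in adrenal medulla pools (log2 2.38 ± 0.29; adjusted p = 5.64e-04). Neither overlapped between the tissues. Markers of smooth muscle and of Schwann cells, given above, were higher in the same libraries, and their part in these differences was not tested. The multiplexin Col18a1, a proteoglycan of vascular basement membranes and the source of endostatin, stood at 12.2, 22.5 and 28.5 RPKM in carotid body pools, against 2.93, 4.90 and 3.25 RPKM in adrenal medulla pools (log2 2.18 ± 0.33; adjusted p = 0.00165). Its relative Col15a1 averaged 2.78 ± 0.664 RPKM in carotid body and 0.652 ± 0.417 RPKM in adrenal medulla (SD, n = 3 each; log2 1.21, adjusted p = 0.00555). The transmembrane collagen Col23a1 stood at 5.37, 5.51 and 5.0 RPKM in carotid body pools, against 0.775, 0.420 and 0.891 RPKM in adrenal medulla pools (log2 1.90 ± 0.19; adjusted p = 1.72e-04). Col23a1 passed the filter through the carotid body alone, so it had to differ and its call is a description. The multiplexins and Col23a1 each lay above in every carotid body pool. Col13a1, a transmembrane collagen of the neuromuscular junction and other adhesion sites, overlapped, at 1.32 ± 0.235 RPKM in carotid body and 1.63 ± 0.214 RPKM in adrenal medulla (SD, n = 3 each; log2 -0.19, adjusted p = 0.517).

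Col7a1, which forms the fibrils that anchor epithelium to the tissue beneath it, was the chain called lower in the carotid body. It stood at 0.0448, 0.0245 and 0.0139 RPKM in carotid body pools 1, 2 and 3, against 1.17, 1.37 and 2.80 RPKM in adrenal medulla pools 1, 2 and 3. The carotid body pools held 11 reads and the adrenal medulla pools 750.0 reads. Col7a1 passed the filter through the adrenal medulla alone, so it had to differ and its call is a description. The log2 difference was -1.39 ± 0.22 (SE; limma adjusted p = 0.00191). With carotid body values so far under the pseudocount of 1, its size depended on the scale, at -3.79 with a pseudocount of 0.1 and -5.86 by limma-voom. Adrenal cortex markers were higher in the same adrenal medulla libraries, and their part in the Col7a1 reads was not tested. Col25a1, a transmembrane collagen of neurons, was below the filter and had 12 reads in carotid body and 79 reads in adrenal medulla (limma-voom log2 -3.30, adjusted p = 0.0282, where 7.3% of all entries were called lower). Col25a1 entered limma-voom through the adrenal medulla alone, so it had to differ and its call is a description.

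Low chains were reached by the read-based fits. Over all entries, limma-voom called 14.2% higher and 7.3% lower, and the fit to log2(RPM + 1) 14.6% higher and 7.53% lower. Each fit tested 35 of the 44 chains and called 23 higher and 2 lower, Col7a1 and Col25a1. All 16 calls of the RPKM fit were among them, and 9 were of chains outside it. Of those 9, Col2a1, Col4a6, Col9a3 and Col26a1 reached 10 reads in no adrenal medulla pool, and Col25a1 in no carotid body pool. These chains passed the read filters through a single tissue, so they had to differ, and their calls are a description. Col8a2 had 133 reads in carotid body and 39 reads in adrenal medulla (limma-voom log2 2.11, adjusted p = 0.0410). Col26a1 had 52 reads in carotid body and 8 reads in adrenal medulla (log2 2.54, adjusted p = 0.00508). Col10a1, the collagen of hypertrophic cartilage, had 15 reads in each tissue, and Col17a1, a hemidesmosome collagen, had 3 reads in carotid body and 1 read in adrenal medulla, which is too few for a comparison.

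The genes that make, process and remove collagen were called in both directions; over all genes, 14.2% were called higher and 7.73% lower. Among enzymes and chaperones that modify and fold the chains, 4 of 21 tested were called higher, 1 was called lower and 16 were not called. Without adrenal medulla pool 3 the counts were 9 higher and 3 lower, without it and carotid body pool 2 they were 5 higher and 3 lower, and with the pool number as a block 7 higher and 2 lower. Plod2, a lysyl hydroxylase that prepares collagen for crosslinking, stood at 2.37, 2.05 and 1.87 RPKM in carotid body pools, against 30.1, 14.1 and 15.0 RPKM in adrenal medulla pools (log2 -2.66; limma adjusted p = 3.72e-04). Its pools did not overlap. Fkbp10, a prolyl isomerase of type I procollagen, was higher by 1.60 on the log2 scale (adjusted p = 0.00321), and the prolyl hydroxylase subunit P4ha3 by 1.16 (adjusted p = 0.00768).

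Outside the cell, procollagen processing had 2 of 4 tested genes called higher and 0 called lower. Pcolce2, an enhancer of the protease that trims the C-terminal end, stood at 134, 119 and 151 RPKM in carotid body pools, against 1.28, 0.113 and 1.499 RPKM in adrenal medulla pools (log2 6.19; limma adjusted p = 1.11e-05). Its relative Pcolce had a log2 difference of -1.12 that was not called (adjusted p = 0.0600). It was called lower with the pool number as a block (adjusted p = 0.00661), after quantile normalization (adjusted p = 0.0357), without adrenal medulla pool 1 (adjusted p = 0.0384) and without carotid body pool 3 (adjusted p = 0.0374). Adamts2, the protease that trims the N-terminal end of type I procollagen, was higher by 2.21 (adjusted p = 0.00190). Among crosslinking enzymes 2 of 5 tested were called higher and 0 lower. They were Lox, by 0.96 on the log2 scale (adjusted p = 0.00333), and Loxl1, by 1.45 (adjusted p = 0.0229). Loxl1 was not called when carotid body pool 2 (adjusted p = 0.0634) or carotid body pool 3 (adjusted p = 0.0887) was left out.

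Genes of collagen breakdown and its inhibitors were the group with most calls, 10 of 12 tested higher in the carotid body and 0 lower. Leaving out 1 pool at a time gave 8 to 10 higher and 0 to 1 lower. Timp4 lost its call in 7 alternative runs, Timp3 in 2 and Mmp14 in 1. Timp1 was called lower without adrenal medulla pool 3 (limma adjusted p = 0.0313). Below the filter, Mmp13 averaged 0.107 RPKM in carotid body and 1.27 RPKM in adrenal medulla without overlap, while Mmp8 and Mmp16 overlapped. Mmp2, a gelatinase, stood at 33.4, 25.5 and 36.9 RPKM in carotid body pools, against 2.52, 2.08 and 2.36 RPKM in adrenal medulla pools (log2 3.30; limma adjusted p = 2.75e-05). Fap, a serine protease of activated fibroblasts, was higher by 2.33 (adjusted p = 8.08e-05), and Ctsk, a cathepsin that cuts helical collagen, by 2.22 (adjusted p = 6.43e-04). Several genes of the list, Mmp2 and Fap among them, are also made by fibroblasts, whose markers were higher in the same libraries, and the part of those cells was not tested. Of the collagen receptors 2 of 6 tested were called higher and 0 lower. Ddr2, the discoidin receptor of fibrillar collagen, was higher by 2.13 (adjusted p = 3.46e-04). Gpr56, an adhesion receptor that binds type III collagen, was higher by 0.85 (adjusted p = 0.0283), a call lost without any 1 of carotid body pools 1, 2 or 3 (adjusted p = 0.0952, 0.0598 and 0.0772), without adrenal medulla pool 1 (adjusted p = 0.0719), or without carotid body pool 2 together with adrenal medulla pool 3 (adjusted p = 0.0524).

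Of 16 regulators of collagen genes, a list of transcription factors with the TGF-beta ligands and Ctgf, 5 were called higher, 4 were called lower and 7 were not called. Tgfb2, a ligand that induces matrix genes, was higher by 2.23 on the log2 scale (limma adjusted p = 0.00157), and Ctgf, a matricellular factor downstream of it, by 2.05 (adjusted p = 8.11e-04). Cebpb, a factor that binds the Col1a1 promoter, stood at 18.6, 30.2 and 39.4 RPKM in carotid body pools, against 89.5, 76.6 and 304 RPKM in adrenal medulla pools. Its log2 difference of -2.15 (adjusted p = 0.0173) was not called without carotid body pool 1 (adjusted p = 0.0797) and was -1.53 without adrenal medulla pool 3. The others called lower, named after their values were seen, were the tendon factors Mkx and Scx and the bone factor Runx2, at -2.04, -1.35 and -1.18. Runx2 was not called without carotid body pool 3 (adjusted p = 0.0561). Scx was not called without carotid body pool 1 (adjusted p = 0.0742), carotid body pool 2 (0.0523) or adrenal medulla pool 2 (0.0899), nor without carotid body pool 2 together with adrenal medulla pool 3 (0.0638). The count called higher was 4 to 6 when 1 pool at a time was left out. The count called lower was 2 without carotid body pool 1 and 3 or 4 without any other single pool.

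**Figure D5:**
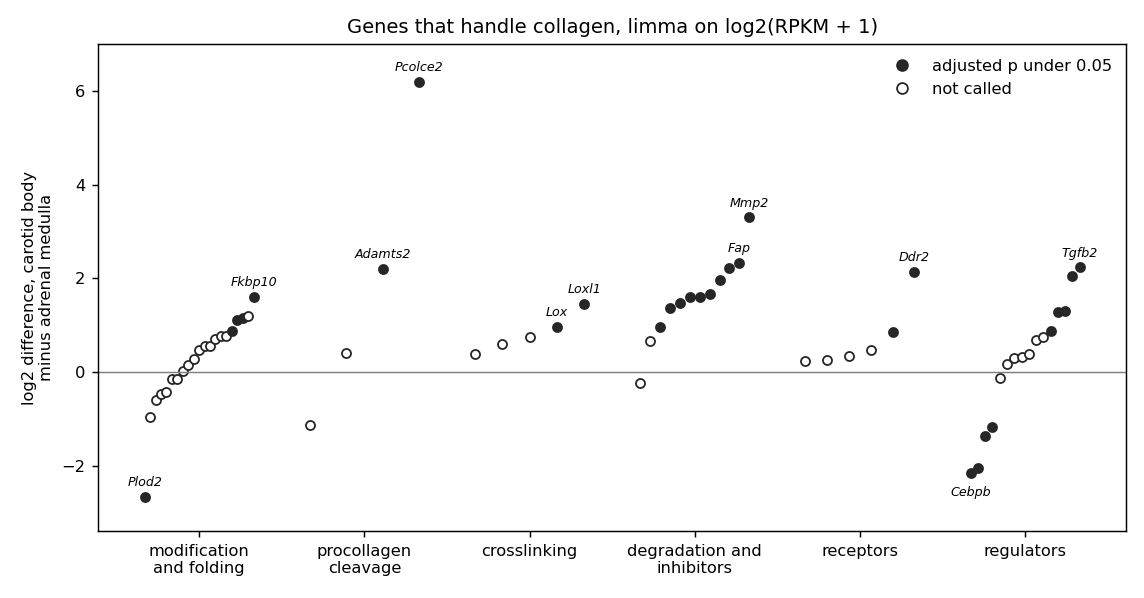
Log2 difference, carotid body minus adrenal medulla, of each tested gene in 6 lists of genes that make, process, remove, bind or regulate collagen, sorted within each list. Filled points are called by limma, 10 of 12 in the list of degradation and inhibitors, all above 0, and 5 above and 4 below 0 among the regulators.

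The genes whose levels ran most like those of a collagen chain were sought over the 6 libraries, among 6714 genes that averaged 10 RPKM or more in one of the tissues. For Col1a1 they were Tax1bp3, with a Pearson correlation of log2(RPKM + 1) of 0.997, Stac at 0.995, Mettl7a2 at 0.992, Lhfp at 0.989 and Col3a1 at 0.988. For Col4a1 they were Necap2 at 0.983, Arhgef25 at 0.971, Oaf at 0.968, Rpl13 at 0.966 and Leprel4 at 0.966. The points are the same 6 libraries of 2 tissues for all genes, so the values are a description. Tax1bp3 stood at 69.6, 111 and 137 RPKM in carotid body pools, against 38.3, 56.5 and 44.0 RPKM in adrenal medulla pools, with the order of pools seen in Col1a1.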

How the data were processed

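RNA of 3 carotid body pools and 3 adrenal medulla pools was amplified (Amino Allyl MessageAmp II) and sequenced, per the labels' protocols, which do not state strand. Reads were aligned with Bowtie 0.9.8 to mm9, per the submitters' processing notes. For 23511 of 26728 entries the authors deposited RPKM; the 3217 entries without an mRNA length, Col12a1 among them, hold raw read counts as deposited. RPKM multiplied by mRNA length and library depth gave whole reads, within 0.01, for every value above 0, and all reads summed to the denominator of the library.

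Genes of at least 1 RPKM in at least 3 libraries were tested in R 4.3.3 by limma 3.58.1 on log2(RPKM + 1), using an empirical Bayes trend, no block and 8.47 moderated degrees of freedom. The recovered reads were tested with limma-voom (at least 10 reads in at least 3 libraries) and on log2(RPM + 1). Single values were compared by exact permutation tests (scipy 1.17.1). Python 3.11.15, pandas 2.3.3, numpy 2.4.6 and matplotlib 3.10.9 were used, and the fit was tested on simulated data.

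The members, gene lists and tests were chosen with earlier results of these data known. Any collagen chain may be named, with values per library for types I, III, IV and VI and for up to 4 called chains per class with the largest differences; a list names up to 3 called genes with the largest differences; likeness names the 5 genes of highest correlation. Some chains and genes beyond the rule, such as Pcolce, were named after their values were seen. Carotid body and adrenal medulla pools of the same number deviated together from their tissue means, with correlations of 0.259, 0.128 and 0.473 across genes for pools 1, 2 and 3. All exceed 0.1, the threshold for running the number as a block beside the unblocked fit, but carotid body pool 2 correlated more with adrenal medulla pool 1, at 0.291. The labels do not say what a number shares.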

Additional observations from a re-analysis of the deposited data

How the results depend on the processing

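Of 24 chains, 15 were called higher and 1 lower. Leaving out 1 pool at a time gave 14 to 15 higher and 1 lower, and leaving out carotid body pool 2 together with adrenal medulla pool 3 gave 13 higher. The read-based fits, limma-voom and log2(RPM + 1), test more chains and called 23 higher and 2 lower each. Over all entries they called 14.2% and 14.6% higher and 7.3% and 7.53% lower. With no filter 22 chains were called higher and 2 lower, and after median-ratio scaling or quantile normalization 2 were called lower, the second being Col27a1. Median-ratio scaling shifted all genes by -0.08 on the log2 scale. No collagen difference called in the RPKM fit changed direction in any alternative run. The replicate block, which pairs pools of the same number, called 16 higher and 1 lower; it added Col4a2. In the other lists it called 7 higher and 2 lower for modification and folding, 2 higher and 1 lower for procollagen cleavage, 3 higher for crosslinking, 11 higher for degradation, and 6 higher and 4 lower for regulators, with receptors at 2 higher. Over all genes, the RPKM fit called 1896 higher and 1033 lower. The block called 2257 higher and 1356 lower over all genes, and the fit with no filter 2195 higher and 1118 lower. The ranges without 1 pool were 1460 to 1999 higher and 692 to 1464 lower, and without both pools 2067 were called lower. The cause was not tested. The collagen share of reads differed by 0.308 percentage points, and by 0.250 to 0.385 without 1 pool. The read-based fits tested 35 of the 44 chains, and the others had too few reads to enter. Having 3 pools against 3 limits every permutation test to p = 0.10.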
